A study of Mus musculus with 46 samples.

Results

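The 33 genes described here act at the entry of germ cells into meiosis and in building the chromosome axis on which homologous chromosomes pair and recombine. They were chosen by name, as a list written with earlier results of these data known, and all 33 were found among the 33331 gene rows of the deposited tables. Their expression was followed in whole gonads of mouse embryos at E12.5, in 46 poly(A)-selected RNA libraries made from 140 ng of total RNA each. The embryos were XX or XY, and were wild type or carried small changes in Enh13, an enhancer that lies far upstream of Sox9 and through it drives testis formation. The XX groups were wild type (n = 3), Enh13-1bp-ins heterozygotes (n = 3) and homozygotes (n = 5), Enh13-3bp-del heterozygotes (n = 3) and homozygotes (n = 5), and homozygotes labelled Enh13-3bp-12bp-del (n = 5). XY embryos had the same 6 genotypes in the same numbers, except that those labelled Enh13-3bp-12bp-del numbered 3. The labels name no strain, do not say how many founder lines were used, and do not explain the combined 3bp-12bp-del genotype, which is called homozygous here as labelled. Because the labels do not say that replicates came from separate embryos, p-values measure the spread between these libraries, which may be technical.

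Germ cells of the fetal ovary enter meiosis soon after the stage sampled here, from the anterior to the posterior end of the gonad, whereas germ cells of the fetal testis do not and become prospermatogonia. Entry depends on STRA8 and its partner MEIOSIN, a pair of transcription factors that switch on the meiotic program, and on BMP signals acting through ZGLP1. Retinoic acid induces Stra8 and Rec8, and Sertoli cells of the fetal testis remove it with the enzyme CYP26B1. Rec8 encodes the meiotic kleisin, the subunit that closes the cohesin ring around sister chromatids, and it can be induced by retinoic acid without STRA8. Most other members act later, in leptotene and zygotene, when the axis forms, breaks are made and synapsis begins, although RNA of many was already measured here.

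The libraries held 29909111 to 46150400 estimated counts each, and the 33 members together took 0.0113 to 0.0266% of them. The general germ cell list (Ddx4, Dazl, Pou5f1 and 10 others in the table) had a mean log2 CPM of 3.59 to 5.38 across libraries, where CPM is the count relative to library size, scaled between libraries by the TMM method. Wild-type XX replicate 3 was low in that list, at 4.07 against 5.12 and 4.85 in the other 2. The Sertoli list mean was 1.67 to 1.81 in wild-type XX and 5.81 to 7.08 in wild-type XY libraries, and the pregranulosa list mean was 6.05 to 6.51 and 2.96 to 3.67, so the defining markers of both supporting cell types followed the sex labels. Wild-type XY replicate 3 stood apart with a mesonephros list mean of 5.00, against 1.02 and 1.60 in its group, and the lowest Sertoli list mean of the XY libraries. Among XX homozygotes the Sertoli list mean ran from 4.96 to 7.16, highest in Enh13-1bp-ins replicate 5, whose pregranulosa list mean was the lowest of all XX libraries, at 3.78.

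Promoter sequence is shown for 3 members because they mark the contrast described below: Rec8 and Taf7l, the members with the largest sex differences, and Stra8, the entry gene that was hardly detected. The windows are the 250 bases before the RefSeq gene start (GRCm38.p6, the assembly of mm10), written 5′ to 3′ on the strand of the gene. Another annotation, GENCODE M21, starts Stra8 at 34920163, before the window shown, and Rec8 at 55618037, within it. Distances given below are from the RefSeq start. Capitals mark matches to a searched motif on either strand.
Rec8 chr14:55617916-55618165, plus strand: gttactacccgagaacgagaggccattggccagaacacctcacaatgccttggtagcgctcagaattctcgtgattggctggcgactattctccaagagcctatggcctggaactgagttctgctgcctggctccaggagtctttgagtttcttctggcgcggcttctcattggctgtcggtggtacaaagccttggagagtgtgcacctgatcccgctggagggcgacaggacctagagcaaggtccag
Taf7l chrX:134476491-134476740, minus strand: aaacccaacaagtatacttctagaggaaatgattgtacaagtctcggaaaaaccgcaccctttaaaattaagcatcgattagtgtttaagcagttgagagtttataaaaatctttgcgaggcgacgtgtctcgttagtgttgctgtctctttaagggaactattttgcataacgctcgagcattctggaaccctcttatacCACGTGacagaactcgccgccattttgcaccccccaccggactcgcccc
Stra8 chr6:34920698-34920947, plus strand: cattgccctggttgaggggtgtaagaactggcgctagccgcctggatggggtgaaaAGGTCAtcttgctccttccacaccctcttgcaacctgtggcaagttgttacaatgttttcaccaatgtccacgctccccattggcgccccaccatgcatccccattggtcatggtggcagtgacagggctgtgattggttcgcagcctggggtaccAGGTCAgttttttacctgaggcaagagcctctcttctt

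The Taf7l window held the E-box CACGTG 49 bases before the start, and the Stra8 window held AGGTCA, the half-site of nuclear receptors, 194 and 38 bases before it. The Rec8 window held none of the motifs searched. RefSeq gave a promoter for 25 of the 33 members, and motifs were counted over the whole window of 250 bases before and 50 after the start, on both strands, with CACGTG reading the same on each. CACGTG, the E-box bound by MAX and its partners, was in 5 of these 25 (20%) and in 7.24% of 27025 mouse promoters. GGCGGGAA, an E2F-type site, was in 4 of 25 (16%) and 2.24% of all promoters, in Hormad1, Spata22, Rad51ap2 and Msh5. CNCCTCAG, the motif reported for STRA8 and MEIOSIN, was in 3 of 25 (12%) and 7.97% of all promoters, in Sycp1, Hormad2 and Msh5. AGGTCA was in 5 of 25 (20%) and 16% of all promoters, and a full retinoic acid response element was in 0 of 25 and 0.585% of all promoters. The members' windows were rich in CpG, with a median of 17 CpG and an observed to expected ratio of 0.666, against 7 and 0.389 over all promoters. CACGTG and GGCGGGAA each contain a CpG, and the set of all promoters was not matched to the members in CpG. The part of CpG content in the motif shares above was not tested. Stra8 had 10 CpG in its window of 300 bases, Rec8 had 18 and Taf7l had 17. These matches are letters in a sequence and say nothing of occupancy.

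The level of the members ran from 0.0193 TPM for Mei1 to 60.1 TPM for Syce2 as means over all libraries, where TPM is the length-scaled abundance that the authors deposited. Syce2, a central element protein of the synaptonemal complex, was thus the highest. Rec8 followed with 19.4 TPM, then Mlh3, a mismatch repair protein of crossover resolution, with 11.03 TPM, and Stag3, another meiotic cohesin subunit, with 9.44 TPM. Hormad1, which coats unsynapsed axes, had 6.72 TPM, and Tex15, needed for meiotic recombination in spermatocytes, had 6.38 TPM. Stra8 was near the bottom at 0.0446 TPM. It had 0 counts in 21 of the 46 libraries and at most 6 in any, with 24 counts summed over the 24 XX libraries and 31 over the 22 XY libraries. The limit that a count of 0 allows, 3 counts, corresponds to 0.065 to 0.1 CPM per library, which covers counting error only, so small differences in Stra8 were not detectable at this depth, and it passed the filter on low counts in no comparison. Meiosin, its partner, was measured in every library, at 1.63 to 3.35 TPM.

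**Figure D1:**
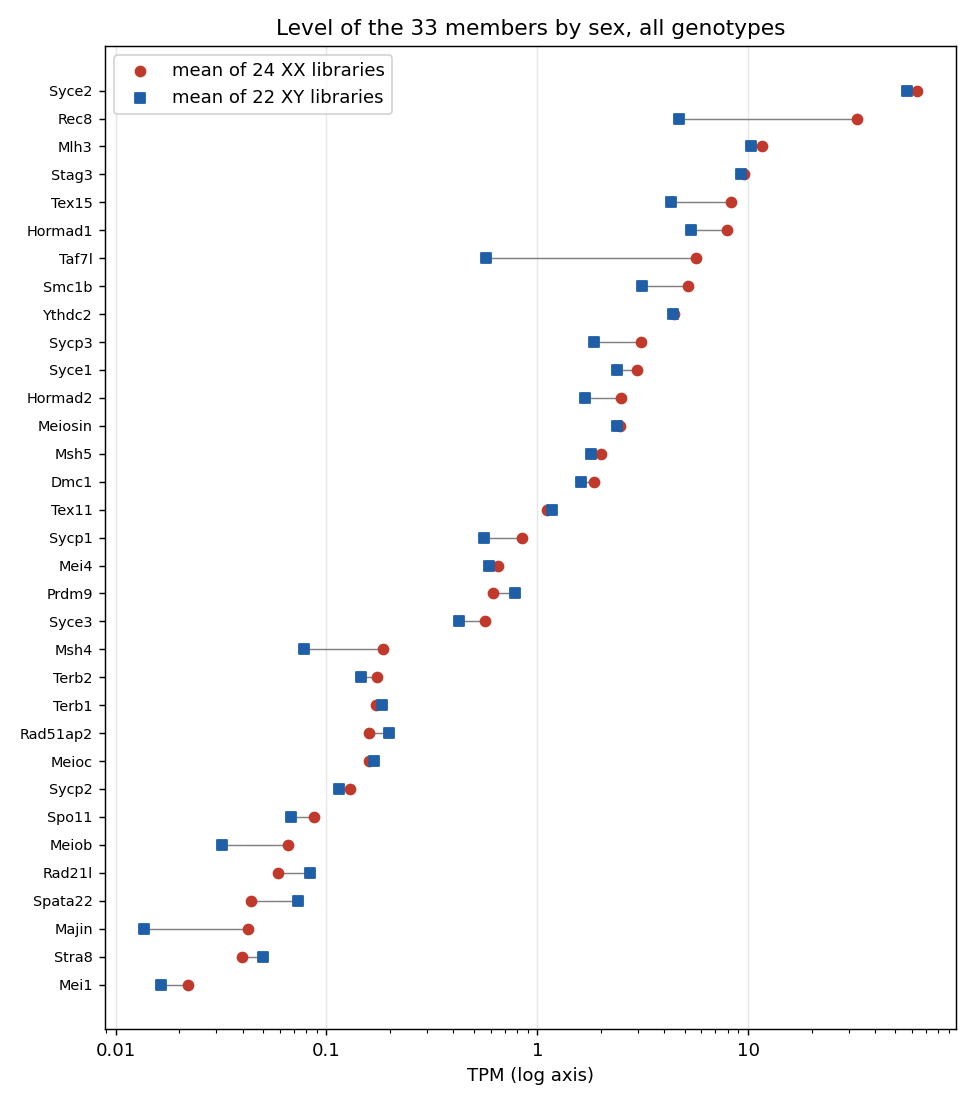
Mean TPM of each member (log axis) over the 24 XX libraries (red circles) and the 22 XY libraries (blue squares), ordered by the XX mean. Rec8 (32.8 against 4.71 TPM) and Taf7l (5.63 against 0.57 TPM) have the widest gaps among members above 1 TPM, and Stra8 lies among the lowest members in both sexes.

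A filter on low counts kept 24 of the 33 members when applied over all groups. The other 9 never passed it. They were Stra8 (meiotic entry), Spo11 and Mei1 (break formation), and Meiob and Spata22 (partners on single-stranded DNA). Also among the 9 were Rad21l (a second meiotic kleisin), Syce3 (central element), and Majin and Terb2 (telomere attachment). The highest count of each of the 9 in any library was 5 to 11. Of the 24, 20 were tested in all 26 comparisons, Meioc and Terb1 in 23, Sycp2 in 16 and Msh4 in 15. Because a scarce gene can pass the filter through the group where it is high, counts below are given over the members tested in each comparison and not over the list.

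Wild-type XX and XY gonads differed in 3 members, and all 3 were lower in XY. Rec8 was 44.1, 43.9 and 54.3 CPM in the XX libraries and 6.23, 6.37 and 9.37 CPM in the XY libraries. The groups did not overlap, and the log2 difference, given as XY minus XX throughout, was -2.70 ± 0.19 (SE; edgeR quasi-likelihood test, Benjamini-Hochberg adjusted p = 0.000482). In bulk gonads, fewer germ cells expressing a gene and less RNA per cell cannot be told apart. Taf7l, an X-linked germ cell paralogue of a subunit of the general transcription factor TFIID, was 3.88, 5.93 and 5.53 CPM in XX and 0.408, 0.879 and 0.629 CPM in XY. This was a log2 difference of -3.001 ± 0.35 (edgeR, adjusted p = 0.00305), with no overlap. Tex15 was 39.97, 44.9 and 39.4 CPM in XX and 15.9, 15.2 and 18.4 CPM in XY, a log2 difference of -1.33 ± 0.11 (edgeR, adjusted p = 0.000794), again without overlap.

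These 3 were among 21 members tested between the wild types, none was higher in XY, and 11% of all 15730 genes tested were called in that comparison. The median log2 difference of the 21 was -0.16, against -0.0023 over all genes tested. Rec8, Taf7l and Tex15 stayed called in each of the alternatives tried for this comparison, including the fit without XY replicate 3 and the fit without XX replicate 3. None of the 13 general germ cell genes was called between the wild types (edgeR, 1 at an unadjusted p under 0.05), although 11 of them were lower in XY with a list median of -0.33. Relative to the mean of that list, Rec8 was 0.88 ± 0.72 (SD, n = 3) log2 units above it in XX and -1.59 ± 0.55 (n = 3) in XY. Smc1b, the meiotic SMC subunit of the same cohesin ring, was 15.6 ± 5.59 CPM (SD) in XX and 8.81 ± 0.84 CPM in XY without overlap but was not called (edgeR, adjusted p = 0.109). Stag3 was 19.1 ± 6.20 and 17.1 ± 0.92 CPM, and the groups overlapped. Meiosin was 2.20, 3.03 and 2.80 CPM in XX and 2.10, 2.64 and 2.86 CPM in XY, with overlapping groups. Among these 3 cohesin genes Rec8 alone was called, and the differences between them were not tested.

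**Figure D2:**
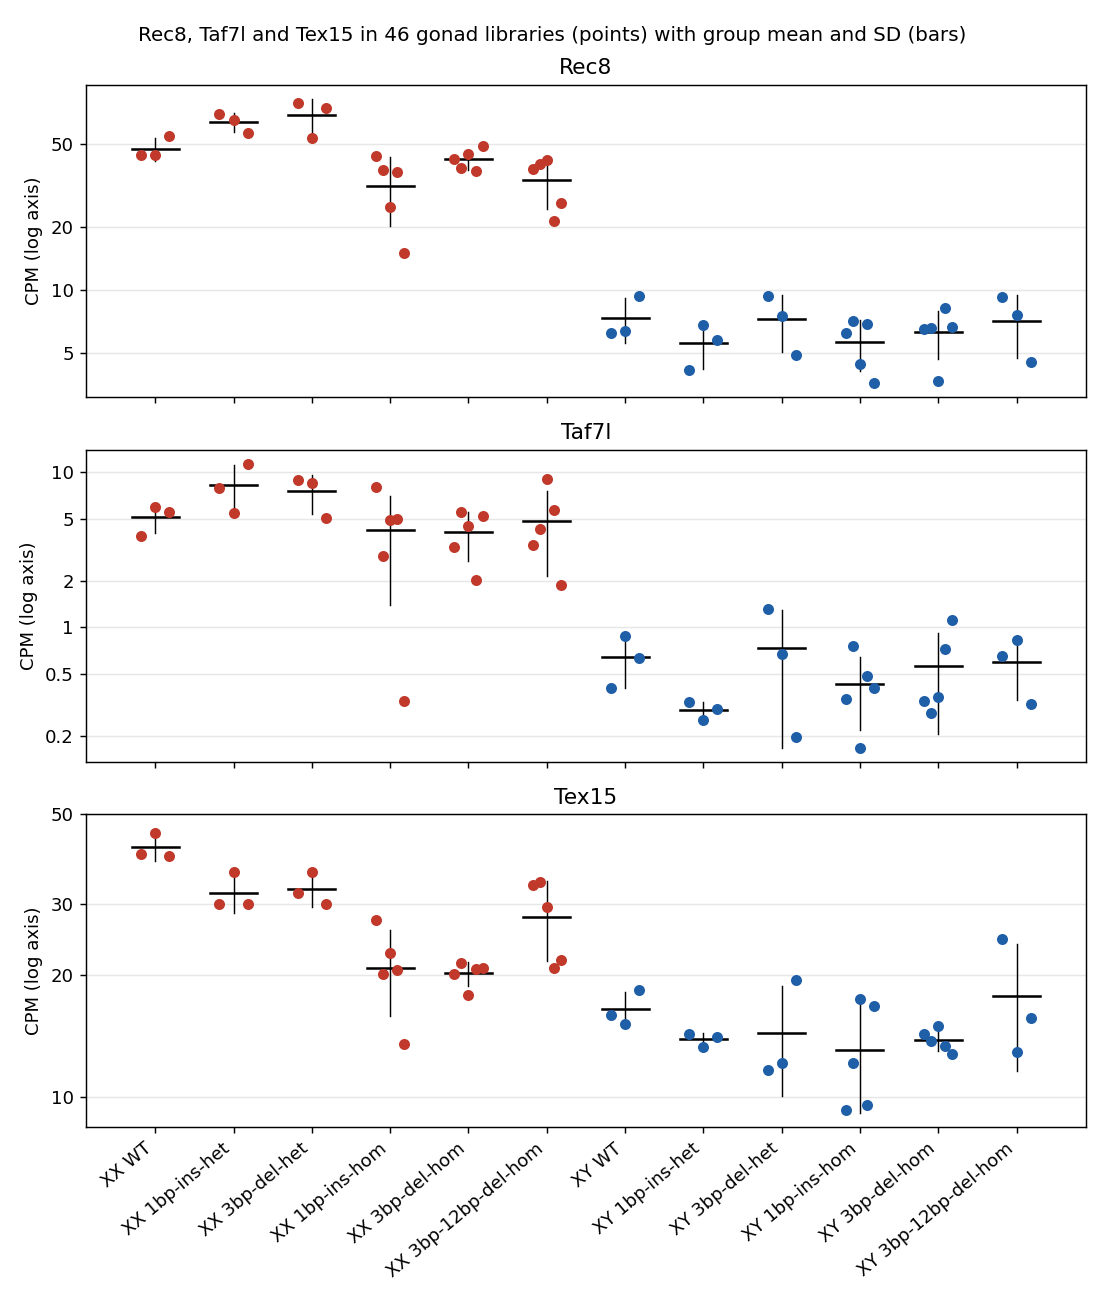
CPM (log axis) of Rec8, Taf7l and Tex15 in each of the 46 libraries by group (XX red, XY blue), with horizontal bars at the group mean and vertical bars of 1 SD. All XX libraries lie above all XY libraries for Rec8, and 1 XX library lies among the XY libraries for Taf7l. For Tex15 the XX homozygotes overlap the XY libraries (lowest XX value 13.5 CPM, highest XY value 24.6 CPM).

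Rec8 and Taf7l were lower in XY than in XX in all 6 genotypes. Over all libraries the highest XY value of Rec8 was 9.37 CPM and the lowest XX value was 15.0 CPM. The log2 differences of Rec8 were -3.53 ± 0.17 in the 1bp-ins heterozygotes, -3.22 ± 0.25 in the 3bp-del heterozygotes, -2.52 ± 0.31 in the 1bp-ins homozygotes, -2.77 ± 0.18 in the 3bp-del homozygotes and -2.26 ± 0.32 in the 3bp-12bp-del homozygotes (edgeR, adjusted p from 1.36e-06 to 0.00946). For Taf7l they were -4.80 ± 0.33, -3.34 ± 0.55, -3.31 ± 0.69, -2.89 ± 0.41 and -3.06 ± 0.57 in the same order (adjusted p from 6.03e-06 to 0.0161). Without XX replicate 5 of the 1bp-ins homozygotes the differences there were -2.70 for Rec8 and -3.61 for Taf7l (adjusted p = 4.15e-05 and 7.76e-05). The Taf7l call in 1bp-ins homozygotes was lost without XY replicate 1 (edgeR, adjusted p = 0.0502). That in 3bp-12bp-del homozygotes was lost without XY replicate 1 (adjusted p = 0.0548) or XY replicate 3 (adjusted p = 0.0713).

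Tex15 was lower in XY in the 1bp-ins heterozygotes (-1.21 ± 0.09), the 3bp-del heterozygotes (-1.17 ± 0.20) and the 3bp-del homozygotes (-0.58 ± 0.07; edgeR, adjusted p from 1.16e-05 to 0.0034). With the libraries scaled to the general germ cell list, the calls in the 3bp-del heterozygotes (-0.69, adjusted p = 0.539) and homozygotes (-0.19, adjusted p = 0.491) were lost. In the 1bp-ins homozygotes the difference was -0.71 ± 0.23 (adjusted p = 0.0771), which passed without XX replicate 5 (-0.83, adjusted p = 0.0166). In the 3bp-12bp-del homozygotes it was -0.68 ± 0.25 (adjusted p = 0.133). In both of these genotypes the XX and XY libraries overlapped, and DESeq2 called both (adjusted p = 0.0152 and 0.0231).

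The number of members called between the sexes was 5 of 22 tested in the 1bp-ins heterozygotes (39.2% of all genes called) and 3 of 22 in the 3bp-del heterozygotes (29.6%). It was 2 of 23 in the 1bp-ins homozygotes (9.94%), 9 of 23 in the 3bp-del homozygotes (31.8%) and 2 of 23 in the 3bp-12bp-del homozygotes (10.4%). Without XX replicate 5 of the 1bp-ins homozygotes the count there was 4, and without XY replicate 1 it was 1. In the 3bp-del heterozygotes it was 5 without XY replicate 3, and in the 3bp-12bp-del homozygotes it was 1 without XY replicate 1 or 3. Whether these shares of members differ from those of all genes was not tested.

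Later meiosis genes were called between the sexes in 2 of these comparisons. In the 1bp-ins heterozygotes Smc1b was 11.4 ± 2.60 CPM (SD, n = 3) in XX and 6.72 ± 1.88 CPM in XY (log2 difference -0.77 ± 0.23, edgeR adjusted p = 0.0274), and the axis protein gene Hormad2 was 1.78 ± 0.16 and 0.99 ± 0.02 CPM (-0.85 ± 0.22, adjusted p = 0.0135). In the 3bp-del homozygotes Sycp1, the transverse filament of the synaptonemal complex, Sycp3, an axis core protein, Smc1b, Hormad1 and Hormad2 were lower in XY by log2 differences of -0.61 to -0.90. Stag3 was higher in XY there (20.1 ± 1.87 against 15.3 ± 2.21 CPM, 0.36 ± 0.11, edgeR adjusted p = 0.021). In the same comparisons 9 and 5 of the 13 general germ cell genes were also lower in XY, with list medians of -0.64 and -0.29. With the libraries scaled to that list all of these calls of lower genes were lost, and Smc1b was at -0.11 in the heterozygotes and -0.22 in the homozygotes. The count of members called in the heterozygotes nevertheless rose from 5 to 10 with that scaling, so other members were called there. Those others are not named here. In 1 fit over all 12 groups the calls of Smc1b in both comparisons and of Sycp1, Hormad1 and Stag3 in the homozygotes were lost (adjusted p from 0.0923 to 0.285). Leaving out 1 library also lost some. The Smc1b call in the heterozygotes went without XX replicate 2 or XY replicate 2 or 3. In the homozygotes Hormad1 went without XX replicate 1, Hormad2 without XX replicate 5, Sycp3 without XX replicate 1 or 5 or XY replicate 2, and Sycp1 without XX replicate 1 or 5 or XY replicate 1 or 2. Rec8 and Taf7l remained called after that scaling in all 6 sex comparisons.

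**Figure D3:**
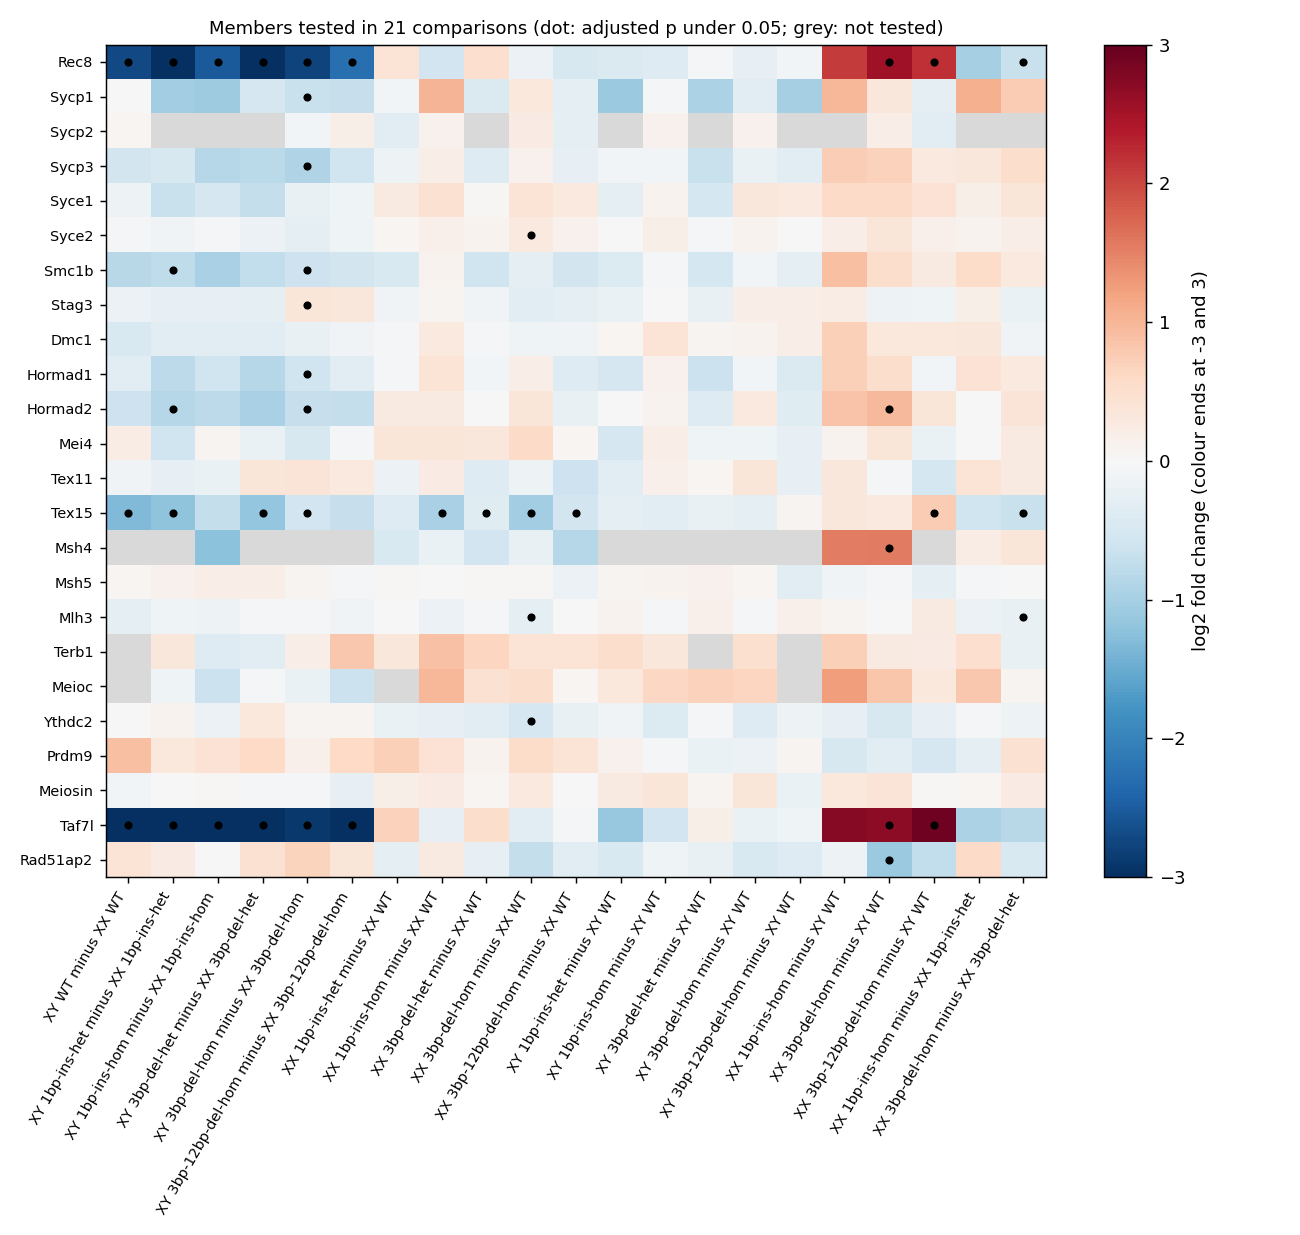
Log2 fold change (colour, ends at -3 and 3) of the 24 members tested in at least 1 comparison, for 21 comparisons named first group minus second. A dot marks an adjusted p under 0.05 and grey a member not tested. The Rec8 and Taf7l rows are called in all 6 sex comparisons on the left, and the Tex15 row in 4 of the 5 XX mutant groups against wild-type XX, while no member is called in the 5 XY mutant groups against wild-type XY.

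In the XX homozygotes Tex15 was lower than in wild-type XX gonads, whereas Rec8 and Taf7l were not called. Rec8 was 43.5, 37.5, 25.0, 36.6 and 15.0 CPM in the 1bp-ins homozygotes, 42.1, 38.3, 44.8, 37.1 and 48.6 CPM in the 3bp-del homozygotes, and 37.7, 40.1, 41.8, 21.4 and 25.9 CPM in the 3bp-12bp-del homozygotes. All 15 values were above the highest XY library. Against wild-type XX the log2 differences were -0.57 ± 0.31, -0.17 ± 0.10 and -0.48 ± 0.22, and none was called (edgeR, adjusted p = 0.195, 0.195 and 0.15). The 1bp-ins and 3bp-12bp-del libraries all lay below the wild-type XX libraries, by a narrow margin, whereas the 3bp-del libraries overlapped them. Without replicate 5 the 1bp-ins difference was -0.39 (adjusted p = 0.117). DESeq2 called the difference in the 3bp-12bp-del homozygotes (-0.49, adjusted p = 0.0488).

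Taf7l ran from 2.90 to 7.98 CPM in 4 of the 1bp-ins homozygotes and was 0.336 CPM in replicate 5, which lay within the XY range of 0.166 to 1.32 CPM. It was 2.03 to 5.53 CPM in the 3bp-del and 1.88 to 9.03 CPM in the 3bp-12bp-del homozygotes. The log2 differences from wild-type XX were -0.25 ± 0.71, -0.32 ± 0.30 and -0.05 ± 0.43, with overlapping groups and no call (edgeR, adjusted p = 0.815, 0.423 and 0.943). The first of these turned to 0.05 without replicate 5, and the third changed sign when any of 4 libraries was left out, so no direction is read from them.

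Tex15 fell in all 3 homozygous genotypes. It was 27.4, 20.2, 22.8, 20.6 and 13.5 CPM in the 1bp-ins, 20.1, 21.4, 17.9, 20.8 and 20.9 CPM in the 3bp-del, and 33.5, 34.0, 29.5, 20.8 and 21.8 CPM in the 3bp-12bp-del homozygotes. Every one of these 15 libraries was below the lowest wild-type XX library of 39.4 CPM. The log2 differences were -0.97 ± 0.19, -1.04 ± 0.07 and -0.55 ± 0.17 (edgeR, adjusted p = 0.00636, 1.68e-05 and 0.0463). The sex difference between the wild types, which shares the XX libraries with these comparisons, was -1.33 for Tex15, -2.70 for Rec8 and -3.001 for Taf7l. The 3bp-12bp-del call was lost without mutant replicate 3, 4 or 5, without wild-type XX replicate 1, 2 or 3 (adjusted p = 0.0953, 0.145 and 0.0971), without an expression filter (adjusted p = 0.07) and with the libraries scaled to the germ cell list (-0.63, adjusted p = 0.0878). Without replicate 5 the 1bp-ins difference was -0.84 (adjusted p = 0.00104). Tex15 has a long transcript, and across genes the fold changes of these comparisons fell with length (Spearman rho across genes of -0.388, -0.477 and -0.219, genes not being independent replicates). With the length trend removed, the Tex15 differences were -0.75, -0.74 and -0.48, and each was still called. The length trend was not limited to the homozygotes. In the XX heterozygotes against wild-type XX rho was -0.408 with 1bp-ins and -0.448 with 3bp-del. It ran from -0.513 to 0.0715 in the XY mutant groups against wild-type XY.

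The heterozygotes of both alleles had higher mean Rec8 than wild-type XX gonads, without a call. The 1bp-ins heterozygotes had 69.1, 64.6 and 56.1 CPM, all above the wild type, and the 3bp-del heterozygotes had 77.9, 53.0 and 74.1 CPM. The log2 differences were 0.41 ± 0.10 and 0.50 ± 0.15, and neither was called (edgeR, adjusted p = 0.508 and 0.0722). The second passed without 3bp-del heterozygote replicate 2 (0.65, adjusted p = 0.0237) and with DESeq2 (adjusted p = 0.00359). Tex15 was lower in the 3bp-del heterozygotes at 31.96, 36.1 and 29.98 CPM (-0.37 ± 0.09, edgeR adjusted p = 0.043), a call lost without mutant replicate 1 or 3, without any 1 of the wild-type XX libraries, with the length trend removed (-0.21, adjusted p = 0.246), in 1 fit over all 12 groups (-0.35, adjusted p = 0.374) and with scaling to the germ cell list. In the 1bp-ins heterozygotes Tex15 was 29.99, 35.9 and 29.95 CPM (-0.38 ± 0.09, adjusted p = 0.508).

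Counted over the members tested, the XX mutants differed from wild-type XX in 0 of 23 members in the 1bp-ins heterozygotes (0% of all genes called; 3 members at an unadjusted p under 0.05, and 0 called by DESeq2) and in 1 of 23 in the 3bp-del heterozygotes (10.9%). The homozygotes differed in 1 of 24 members with 1bp-ins (32.3% of all genes), 4 of 24 with 3bp-del (44.8%) and 1 of 24 with 3bp-12bp-del (25.6%). In each homozygous genotype the share of members called was below that of all genes, a difference that was not tested. Beside Tex15, the 3bp-del homozygotes had higher Syce2 (33.2 ± 3.17 against 26.9 ± 2.75 CPM, 0.30 ± 0.09), lower Mlh3 (28.4 ± 0.88 against 34.2 ± 2.38 CPM, -0.27 ± 0.06) and lower Ythdc2 (13.3 ± 2.04 against 18.7 ± 2.49 CPM, -0.49 ± 0.13; edgeR, adjusted p = 0.0234, 0.00512 and 0.0101). The Syce2 libraries were 38.3, 33.5, 30.4, 30.6 and 32.9 CPM against 28.6, 28.3 and 23.7 CPM in the wild type, and those of Mlh3 were 28.5, 27.8, 27.7, 29.9 and 28.3 CPM against 31.6, 34.9 and 36.2 CPM, both without overlap. The Ythdc2 libraries were 11.9, 13.1, 11.7, 16.8 and 12.9 CPM against 19.3, 20.7 and 15.9 CPM and overlapped. The Syce2 call was lost without wild-type XX replicate 3 (adjusted p = 0.0999) and the Ythdc2 call without wild-type XX replicate 2 (adjusted p = 0.0573). YTHDC2 is an RNA-binding protein needed for the switch from mitosis to meiosis. Scaling to the germ cell list also left Tex15 alone among these 4 (adjusted p of the others from 0.24 to 0.941). Removing the length trend did the same, with Syce2 at 0.03, Mlh3 at -0.05 and Ythdc2 at -0.17. The 3bp-del heterozygote count was 2 without its replicate 2. The 3bp-12bp-del count rose to 4 without wild-type XX replicate 3, the library low in germ cell genes.

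Set against wild-type XY gonads, the XX homozygotes were higher in Rec8 and Taf7l, with calls in 2 of the 3 genotypes. Rec8 was higher by 2.53 ± 0.17 in the 3bp-del and 2.18 ± 0.27 in the 3bp-12bp-del homozygotes (edgeR, adjusted p = 6.28e-05 and 0.00518). In the 1bp-ins homozygotes it was higher by 2.10 ± 0.36 with no overlap, which missed the threshold (adjusted p = 0.0819) and passed without replicate 5 (2.28, adjusted p = 0.00428). Taf7l was higher by 2.69 ± 0.41 and 2.92 ± 0.53 (adjusted p = 0.00325 and 0.0174), and by 2.72 ± 0.85 in the 1bp-ins homozygotes (adjusted p = 0.22, or 0.0109 without replicate 5). The 3bp-12bp-del call of Taf7l was lost without wild-type XY replicate 1 (adjusted p = 0.0692).

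Tex15 was 0.34 ± 0.20, 0.30 ± 0.09 and 0.75 ± 0.19 above wild-type XY on the log2 scale in the homozygotes of 1bp-ins, of 3bp-del and of 3bp-12bp-del. The third alone was called (edgeR, adjusted p = 0.437, 0.058 and 0.0485), a call lost without mutant replicate 1, 2 or 3 or wild-type XY replicate 1 or 2, with RLE normalization (adjusted p = 0.0506), without an expression filter (adjusted p = 0.0534) and with scaling to the germ cell list (adjusted p = 0.252). With that scaling the other 2 differences turned to -0.0211 and -0.0377. The 3bp-del difference passed without wild-type XY replicate 3 (0.39, adjusted p = 0.0148). The members called were 0 of 23 in the 1bp-ins comparison (0.126% of all genes; 8 members at an unadjusted p under 0.05, and 2 called by DESeq2), 5 of 24 in the 3bp-del comparison (17.6%) and 3 of 23 in the 3bp-12bp-del comparison (5.6%). The 3bp-del count included Hormad2 and the crossover protein gene Msh4, both higher, and Rad51ap2, lower at 0.23 ± 0.05 against 0.50 ± 0.10 CPM. These last 3 are scarce, and the calls of Msh4 and Rad51ap2 were lost with DESeq2 (adjusted p = 0.0532 and 0.0632) and without an expression filter (adjusted p = 0.0534 and 0.0704). That of Rad51ap2 was also lost in 1 fit over all 12 groups (adjusted p = 0.0927), and all 3 with scaling to the germ cell list (adjusted p from 0.0732 to 0.382). The Msh4 call went without wild-type XY replicate 3 (adjusted p = 0.063) or 1 or 3bp-del replicate 1, 2 or 5 (up to 0.108). The Rad51ap2 call went without 3bp-del replicate 2, 3, 4 or 5 or wild-type XY replicate 1 or 2 (up to 0.149). The Hormad2 call went without 3bp-del replicate 3 or 5 or wild-type XY replicate 1 (up to 0.0884). The 3bp-del count was 2 without 3bp-del replicate 5 or wild-type XY replicate 1 and 3 without 3bp-del replicate 2. The 3bp-12bp-del count was 1 without wild-type XY replicate 1.

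Homozygous XX gonads were also compared with heterozygous ones of the same allele. With 3bp-del, 3 of 23 members were called (27.1% of all genes), all lower: Rec8 by a log2 difference of -0.66 ± 0.13, Tex15 by -0.66 ± 0.08 and Mlh3 by -0.22 ± 0.06 (edgeR, adjusted p = 0.00456, 0.000363 and 0.025). The 2 groups did not overlap in Rec8, at 37.1 to 48.6 against 53.0 to 77.9 CPM. With scaling to the germ cell list none of the 3 was called (Rec8 at -0.89 with an adjusted p of 0.353, Tex15 at -0.81 with 0.531), and in 1 fit over all 12 groups Tex15 alone was (Rec8 adjusted p = 0.0626). The Mlh3 call was also lost with the length trend removed (adjusted p = 0.159) and without heterozygote replicate 1 or 3 or homozygote replicate 2, 3 or 5. The count was 5 without heterozygote replicate 2 or homozygote replicate 4. With 1bp-ins, 0 of 23 were called (17.3% of all genes; 2 members at an unadjusted p under 0.05, and 2 called by DESeq2). Rec8 there was lower by -0.99 ± 0.31 and Tex15 by -0.60 ± 0.19, without overlap (edgeR, adjusted p = 0.0611 and 0.0623). With homozygote replicate 4 left out the count was 1. Both genes passed without homozygote replicate 5 (-0.81 and -0.48, adjusted p = 0.0138 and 0.023) or homozygote replicate 1 (adjusted p = 0.0471 and 0.0296).

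In XY gonads no member was called in any of the 5 mutant groups against wild type, where 0, 0, 0, 0 and 0.013% of all genes were called. At an unadjusted p under 0.05 there were 2 members in the 1bp-ins heterozygotes, 1 in the 1bp-ins homozygotes, 0 in the 3bp-del heterozygotes, 2 in the 3bp-del homozygotes and 1 in the 3bp-12bp-del homozygotes, and DESeq2 called none. Rec8 was 4.11 to 6.79, 3.58 to 7.09, 4.90 to 9.32, 3.66 to 8.20 and 4.53 to 9.20 CPM in these groups in that order, each overlapping the wild-type range of 6.23 to 9.37 CPM. The effect of a genotype was compared between the sexes as an interaction. Tex15 in the 3bp-del homozygotes was the 1 member called over the 5 interaction terms, with a value of 0.75 ± 0.12 (XY effect minus XX effect, edgeR adjusted p = 0.00309), where 3.83% of all genes were called. That call was lost in 1 fit over all 12 groups (0.74, adjusted p = 0.0825) and with scaling to the germ cell list (1.03, adjusted p = 0.3). Across genes the values of this term rose with transcript length (Spearman rho = 0.318), and Tex15 has a long transcript. Over the alternatives the Tex15 value ran from 0.571 to 1.03. The other 4 terms called 0 of 24 members each, against 0% of all genes in both heterozygotes, 1.04% in the 1bp-ins homozygotes and 0.597% in the 3bp-12bp-del homozygotes (at an unadjusted p under 0.05 there were 2 members in the 1bp-ins heterozygotes and 0 in the other 3, and DESeq2 called 0). The Tex15 effects were -0.28 ± 0.10 in XY and -1.04 ± 0.07 in XX. Without wild-type XX replicate 3 the count of members was 2. For Rec8 and Taf7l the interaction was not called in any genotype.

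Within the 15 XX homozygous libraries, a relation noticed in the data was measured between each of the 24 filtered members and the mean of 2 marker lists, 48 relations in all. Rec8 was lower where the Sertoli list was higher (Pearson r = -0.82, permutation p = 0.00034, adjusted p = 0.00544). Its rank correlation was weaker (Spearman rho = -0.51, permutation p = 0.055, adjusted p = 0.22). Without the 2 libraries farthest from the median of the Sertoli list r was -0.76, and r was -0.79 after each genotype was centred on its own mean. Rec8 was 15.0 and 21.4 CPM in the 2 libraries with the highest Sertoli list means, of 7.16 and 6.61. Rec8 was the 1 member of the 24 with an adjusted p under 0.05 for Pearson's r with that list. The Sertoli list holds Sox9, Amh, Dhh, Fgf9 and Cyp26b1 among others. This relation and the Cyp26b1 values given below are therefore not separate observations.

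Of the 24 members, 8 were higher where the germ cell list was higher. For these 8 Pearson's r with the general germ cell list had an adjusted p under 0.05, and all 8 were positive: Sycp1, Sycp3, Syce1, Syce2, Smc1b, Hormad1, Hormad2 and Tex11, a meiotic gene of crossover formation on the X chromosome. For the others r ran from -0.51 for Mlh3 to 0.60 for Stag3 (adjusted p = 0.197 and 0.0869). By rank correlation Syce2 missed the threshold (Spearman rho = 0.56, adjusted p = 0.163) and Stag3 passed it (rho = 0.73, adjusted p = 0.0234). The closest were Sycp3 and Hormad1, both with r = 0.82 (permutation p = 0.00022 and 0.00027, adjusted p = 0.00544; Spearman rho = 0.81 and 0.88, adjusted p = 0.00912 and 0.00384). Without the 2 farthest libraries r was 0.77 and 0.82, and within genotypes 0.80 and 0.83. For Syce1 r fell from 0.74 to 0.48 without those 2 libraries, so its relation rests in part on them. Both measures of each relation come from the same library and share its depth and scaling. Whether a library holds more germ cells, or the same cells hold more of these RNAs, cannot be told apart.

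**Figure D4:**
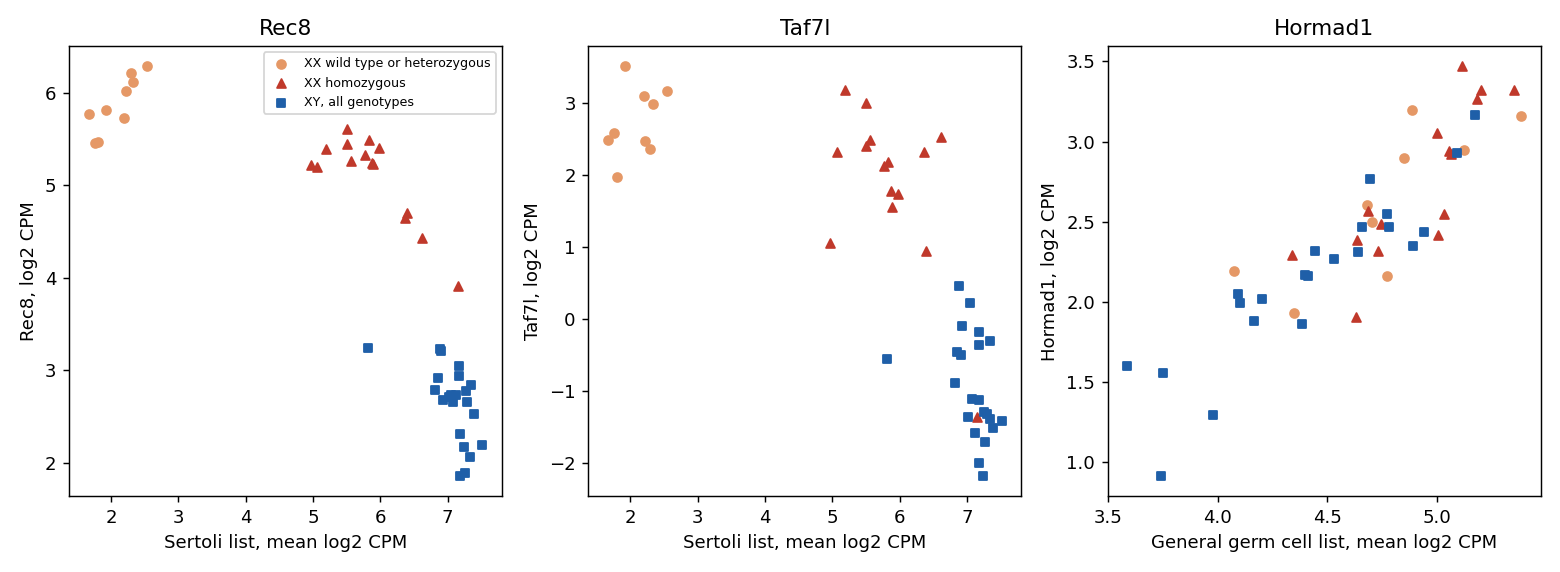
Log2 CPM of Rec8 and Taf7l against the mean log2 CPM of the Sertoli list, and of Hormad1 against that of the general germ cell list, 1 point per library (XX wild type or heterozygous orange circles, XX homozygous red triangles, XY blue squares). In the XX homozygotes, whose Sertoli list means run from 4.96 to 7.16, Rec8 is lower at the higher means, and Hormad1 is higher in libraries with a higher germ cell list mean.

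Replicate 5 of the XX 1bp-ins homozygotes stood apart in both groups of genes. It had the lowest Rec8 (15.0 CPM), Taf7l (0.336 CPM) and Tex15 (13.5 CPM) of all XX libraries. Its Smc1b, at 25.7 CPM, was the highest of all 46 libraries, and its general germ cell list mean of 5.11 was within the upper range of XX libraries. Its Meiosin was 2.07 CPM, against 3.05 to 3.90 CPM in the other 4 of its group.

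The retinoic acid genes that surround the members were read from a list of 20, of which 18 were tested between the wild types. Cyp26b1, which degrades retinoic acid, was higher in XY (187 ± 71.7 against 21.03 ± 2.80 CPM, log2 difference 3.14 ± 0.30), as was Aldh1a1, a synthesis enzyme (274 ± 146 against 42.3 ± 6.20 CPM, 2.69 ± 0.45; edgeR, adjusted p = 0.00164 and 0.0125). No other was called, and leaving out any 1 of the XX libraries lost the Aldh1a1 call (adjusted p = 0.0553 to 0.0635). Both rose in the XX homozygotes of all 3 genotypes, Cyp26b1 by 2.51 ± 0.39, 1.98 ± 0.20 and 2.84 ± 0.19 and Aldh1a1 by 2.66 ± 0.57, 1.88 ± 0.19 and 2.23 ± 0.29 with 1bp-ins, with 3bp-del and with 3bp-12bp-del, in that order (adjusted p from 0.000113 to 0.0109). Without replicate 5 the 1bp-ins changes were 2.23 for Cyp26b1 and 2.10 for Aldh1a1. Cyp26a1, another degrading enzyme and a target of retinoic acid, was at 0.02 CPM in wild-type XX and 0.74, 0.92 and 0.90 CPM in the homozygotes, a call in each with the wild type near 0 counts. Called in the list were 5 of 19 (4 higher), 7 of 19 (5 higher) and 8 of 19 (3 higher), where 32.3%, 44.8% and 25.6% of all genes were called. The receptors Rara, Rarb and Rarg were not called between the wild types. In the same homozygotes Rec8 was at 31.5 ± 11.4, 42.2 ± 4.72 and 33.4 ± 9.15 CPM, and Cyp26b1 was at 118 ± 54.6, 83.0 ± 17.9 and 148 ± 31.3 CPM. The relation between Rec8 and Cyp26b1 was not tested, and retinoic acid itself was not measured.

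The BMP list held 16 genes, of which 5 were called between the wild types. Bmp2, a ligand of pregranulosa cells, was lower in XY (9.77 ± 0.49 against 58.5 ± 6.56 CPM, -2.59 ± 0.11), and the BMP-responsive genes Msx1 (-3.37 ± 0.15), Msx2 (-2.38 ± 0.35) and Id3 (87.6 ± 20.9 against 155 ± 2.24 CPM) were also lower, whereas Bmp7 was higher (0.65 ± 0.12; edgeR, adjusted p from 0.000141 to 0.0202). Bmp2, Msx1 and Msx2 fell in all 3 homozygous XX genotypes, Bmp2 by -1.12 ± 0.29, -0.88 ± 0.15 and -1.04 ± 0.27 (adjusted p = 0.0222, 0.00115 and 0.0268). The wild-type call of Bmp7 was lost without XX replicate 2 or 3 or XY replicate 1 and with scaling to the germ cell list (adjusted p = 0.244). The 1bp-ins call of Bmp2 was lost without wild-type XX replicate 2 or 3, and the 3bp-12bp-del call without its replicate 5 or any 1 of the wild-type XX libraries. The 1bp-ins call of Msx1 was lost without its replicate 2 or 3 or any 1 of the wild-type XX libraries (adjusted p = 0.054 to 0.119). Without an expression filter that call (adjusted p = 0.0791) and the 3bp-12bp-del call of Bmp2 (adjusted p = 0.0508) were lost. In 1 fit over all 12 groups the 3bp-del calls of Msx1 and Msx2 (adjusted p = 0.0875 and 0.354) and the 1bp-ins call of Msx2 (adjusted p = 0.0547) were lost, and scaling to the germ cell list lost the 3bp-del calls of both (adjusted p = 0.0516 and 0.133). Bmp2 and Msx1 are also pregranulosa markers here, and the pregranulosa list was lower in the same homozygotes, with 9, 8 and 10 of its 10 genes called lower; its part in these results was not tested. Called in the list, in either direction, were 8 of 16 with 1bp-ins, 10 of 16 with 3bp-del and 10 of 16 with 3bp-12bp-del, where 32.3%, 44.8% and 25.6% of all genes were called. Bmp7 was called higher in all 3, by 0.42, 0.44 and 0.63 in that order (edgeR, adjusted p = 0.0498, 0.00223 and 0.000865). Its 1bp-ins call was lost without any 1 of the wild-type XX libraries. Over the alternatives the adjusted p of the 3 Bmp7 differences reached 0.91, 0.812 and 0.214. Zglp1, the germ cell factor below BMP, was 1.70 CPM in XX and 0.49 CPM in XY and was not called (edgeR, adjusted p = 0.0906).

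Genes of the male germ cell path rose in the same homozygotes, in which every Rec8 value was above the XY libraries. Lefty2, a Nodal antagonist of XY germ cells, was 39.4 ± 9.59 CPM in wild-type XY and 1.56 ± 0.39 CPM in wild-type XX, and it was higher in the homozygotes than in wild-type XX by 4.26 ± 0.66, 3.79 ± 0.38 and 3.81 ± 0.33 (edgeR, adjusted p = 0.0032, 0.000172 and 0.000289). Lefty1, Nodal and Fgf9 rose as well in each. All 5 tested members of the list were called higher in each genotype, where 32.3%, 44.8% and 25.6% of all genes were called. Members scarce in wild-type XX can pass the filter on low counts through the homozygotes, so this count does not stand for the whole list. Fgf9 and Dmrt1, also in the list, are expressed by Sertoli cells. The Nodal calls in the 1bp-ins and 3bp-del homozygotes were lost without wild-type XX replicate 3 (adjusted p = 0.0682 and 0.0731) and with scaling to the germ cell list (adjusted p = 0.14 and 0.193). Without replicate 5 the 1bp-ins change of Lefty2 was 3.92. Nanos2, the defining factor of committed male germ cells, was near 0 counts in both wild types.

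Of a wider list of 35 meiosis genes outside the members, 30 were in the table and 27 were tested between the wild types. None was called (edgeR, 4 at an unadjusted p under 0.05), but Psmc3ip and Trip13 were called higher in XY without wild-type XY replicate 3 (adjusted p = 0.00399 and 0.00215). In the XX homozygotes 6 of 27 (5 higher), 8 of 28 (7 higher) and 3 of 27 (all higher) were called with 1bp-ins, with 3bp-del and with 3bp-12bp-del, in that order, where 32.3%, 44.8% and 25.6% of all genes were called. Psmc3ip and Trip13, which also serve recombination or chromosome segregation in dividing cells, rose in all 3, Psmc3ip by 0.42 ± 0.10, 0.46 ± 0.08 and 0.59 ± 0.10 (adjusted p = 0.0112, 0.00112 and 0.00297). With the libraries scaled to the germ cell list neither of these genes was called. The 1bp-ins call of Psmc3ip was also lost with the length trend removed (0.24, adjusted p = 0.11). Brca2 went the other way. It was called lower with 1bp-ins (-0.35) and with 3bp-del (-0.46), but not with 3bp-12bp-del (-0.12; edgeR, adjusted p = 0.0137, 0.000369 and 0.438). The 1bp-ins call of Brca2 was lost without wild-type XX replicate 2. Over the alternatives the adjusted p of the called differences reached 0.255 and 0.215.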

How the data were processed

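The deposited tables hold, for 46 libraries, estimated counts and TPM per gene symbol. The authors deposited the estimated counts without normalization as far as the values show, and the authors scaled the TPM values by length. Per the submitters' processing notes reads were placed on mm10. Aligner, quantifier, annotation and strand handling: not given in the sources used here. Each table has 1 column without a matching sample, which was not used. TPM columns sum to 923510 to 945850, so the rows do not make up the full scale.

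Rounded counts were tested in edgeR 4.0.16 under R 4.3.3, by the robust quasi-likelihood F test with TMM scaling and filterByExpr. Each of 26 comparisons used only the libraries of the groups it names, p-values were adjusted over all genes tested, and genes were called at an adjusted p under 0.05. Standard errors come from the size of the log2 fold change over the root of F. Log2 CPM has a prior count of 2. The fit was tested on simulated data. In 71 within-group pairs the smallest chi-square was 12.6 times its degrees of freedom, so none was counted as a double deposit. Genes were placed by GENCODE M21, where Meiosin has another name and was taken to be Gm4969, a name set by hand. Exons of Sycp3 and Msh4 overlap genes on the other strand, and those of Spata22 a gene on the same strand, so their counts may be shared.

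Named were every member called in the wild-type sex comparison or in XX homozygotes, Rec8, Stra8 and Meiosin, and of each other list up to 4 genes by adjusted p between the wild types and up to 2 in XX homozygotes; the text gives part of these. Id3, Zglp1, Nanos2, the receptors and the other genes named from lists were added after their values were seen. The members and lists were chosen with earlier results of these data known. Alternatives were DESeq2 1.42.0, RLE size factors, 1 joint fit of the 12 groups, testing without an expression filter, the replicate number as a block, removal of the length trend (lowess span 0.3), scaling to the general germ cell list, and leaving out each library. The relations over XX homozygotes, with 100000 permutations and 2-sided p-values, were chosen after the data were seen. Individual results of some genes outside the members are not reported here.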

Additional observations from a re-analysis of the deposited data

Results flagged for a closer look

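In groups of 5 libraries, 120 combinations of gene and group were checked for a library far from the others, and 8 stood apart, where chance alone gives about 6. In XX 1bp-ins homozygote replicate 5, Sycp2 was 0.672 CPM against 0.166 to 0.248 CPM in the other 4, and Rad51ap2 was 1.09 CPM against 0.167 to 0.386 CPM. In XX 3bp-12bp-del homozygote replicate 2, Msh4 was 0.409 CPM against 0.116 to 0.187 CPM and Meiosin was 3.80 CPM against 2.26 to 2.38 CPM. In XY 1bp-ins homozygote replicate 3, Mlh3 was 32.2 CPM against 25.1 to 26.9 CPM and Ythdc2 was 17.5 CPM against 13.0 to 13.8 CPM. Syce2 was low in XY 3bp-del homozygote replicate 1, at 20.1 CPM against 29.6 to 31.4 CPM. Ythdc2 was high in XX 3bp-del homozygote replicate 4, at 16.8 CPM against 11.7 to 13.1 CPM, in the library with the highest mesonephros list mean of its group (4.30).

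The effect of the 3bp-del homozygous genotype on Tex15 differed between the sexes by 0.75 (XY effect minus XX effect, interaction term of edgeR, adjusted p = 0.00309). The call was lost in 1 fit over all 12 groups (0.74, adjusted p = 0.0825) and with the libraries scaled to the germ cell list (1.03, adjusted p = 0.3). Across genes the values of this term rose with transcript length (Spearman rho = 0.318), and the Tex15 transcript is long. Tex15 was lower than wild type in 5 of 5 XX and in 5 of 5 XY homozygous libraries, and the groups did not overlap in either sex.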

How the results depend on the processing

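Alternatives were run on the counts of members called in 26 comparisons and on the log2 fold changes of the genes named. RLE normalization moved none of the 26 counts beyond 1.5 times, no expression filter and removal of the length trend moved 2 each, DESeq2 4, and 1 fit over all 12 groups 8. Scaling to the germ cell list, which rests on 13 genes that themselves differ between libraries, moved 10. The cause of these shifts was not tested. In 1 fit over all groups the sex counts were 5 in wild type, 6 in 1bp-ins homozygotes and 5 in 3bp-del homozygotes, the count of XX 3bp-del heterozygotes against wild-type XX was 0, that of XX 1bp-ins homozygotes against wild-type XY was 3, the homozygote to heterozygote counts were 2 (1bp-ins) and 1 (3bp-del), and the 3bp-del homozygote interaction count was 0 (Tex15 at 0.74, adjusted p = 0.0825). Scaled to the germ cell list, the sex counts were 10 in 1bp-ins heterozygotes and 5 in 3bp-del homozygotes. Against wild-type XX they were 0 (3bp-del heterozygotes), 1 (3bp-del homozygotes) and 0 (3bp-12bp-del), against wild-type XY 2 (1bp-ins) and 2 (3bp-del), for homozygotes against heterozygotes 1 (1bp-ins) and 0 (3bp-del), and for the 3bp-del homozygote interaction 0. In that scaling Tex15 against wild-type XY turned to -0.0211 in 1bp-ins and -0.0377 in 3bp-del homozygotes, and the Tex15 sex calls in 3bp-del heterozygotes (-0.69) and homozygotes (-0.19) were lost. DESeq2 gave 2 members in the XX 3bp-del heterozygotes and 2 in the XX 3bp-12bp-del homozygotes against wild-type XX, 2 in XX 1bp-ins homozygotes against wild-type XY and 2 in 1bp-ins homozygotes against heterozygotes. With the length trend removed the XX 3bp-del counts against wild-type XX were 0 (heterozygotes) and 1 (homozygotes), and with no expression filter the XX 3bp-12bp-del count was 0 and the 3bp-del count against wild-type XY was 3. Same-numbered replicates did not pair across groups, with correlations of their deviations from -0.32 to 0.39 and no comparison in which every pair passed 0.1. With the replicate number as a block the counts were 4 (sex, 3bp-del homozygotes), 2 and 7 (XX 1bp-ins and 3bp-del homozygotes against wild-type XX), 2 (XX 3bp-del homozygotes against wild-type XY) and 2 (1bp-ins homozygotes against heterozygotes), Taf7l in XX 3bp-12bp-del homozygotes turned to 0.036, the Taf7l sex call in 1bp-ins homozygotes was lost (-2.97, adjusted p = 0.0636), and the other 21 counts stayed within 1.5 times. Leaving out 1 library at a time, the sex counts ran from 3 to 4 in wild type, 4 to 6 and 1 to 4 in 1bp-ins heterozygotes and homozygotes, 3 to 5 and 6 to 9 in 3bp-del heterozygotes and homozygotes, and 1 to 3 in 3bp-12bp-del. Against wild-type XX they ran from 0 to 2 (3bp-del heterozygotes), 3 to 4 (3bp-del homozygotes) and 0 to 4 (3bp-12bp-del), against wild-type XY 0 to 2, 2 to 5 and 1 to 3, for homozygotes against heterozygotes 0 to 2 and 2 to 5, and for the 3bp-del homozygote interaction 1 to 2. Taf7l against wild-type XX ran from -0.6251 without mutant replicate 1 to 0.0478 without replicate 5 in 1bp-ins homozygotes, and from -0.3988 without mutant replicate 3 to 0.1344 without replicate 5 in 3bp-12bp-del homozygotes, where it also turned positive without mutant replicate 1 and without wild-type XX replicate 2 or 3. Depth limits Stra8 and the other 8 members that did not pass the filter on low counts.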
